A study of Mus musculus with 8 samples.

Results

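Levels of 10 genes of the Nodal and BMP signalling systems were described in mESCs, mouse embryonic stem cells, which are pluripotent and come from the early embryo. The genes were Nodal, Gdf3, Lefty1, Lefty2, Smad7, Bmp4, Id1, Id2, Id3 and Apela. They form a list of named genes, looked up by symbol among the 52338 gene rows that held values, and all 10 were found. All 10 also passed the filter on low values, a mean of at least 1 FPKM over the 8 libraries, which left 14561 genes for testing.

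The study concerned the long intergenic non-coding RNA linc1393 and the upkeep of pluripotency. Total RNA was sequenced in 8 libraries, 2 in each of 4 groups: wild-type mESCs that were untreated (control), and mESCs given what the labels call sh-linc1393 (sh), sd-linc1393 (sd) or dd-linc1393 (dd). The meaning of sd and dd is not stated, and the labels name no line, reagent, dose or time, and describe no treated control, so the effect of linc1393 and the effect of giving a reagent cannot be told apart. The level of linc1393 was not analysed here, and no label ties the libraries within a group to different cultures. The p-values thus reflect the spread among these libraries alone, and that spread may be technical.

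Nodal and its relative Gdf3 are secreted ligands of the TGF-beta family that signal through activin receptors and the transcription factors Smad2 and Smad3. Lefty1 and Lefty2 are secreted inhibitors of Nodal that are themselves targets of the pathway, and Smad7 is an intracellular inhibitor that is switched on by the signals it dampens. Bmp4 acts through other receptors and Smad1, Smad5 and Smad8, and its best known targets are the Id genes, which encode helix-loop-helix proteins that bind and block basic helix-loop-helix activators. In mESCs grown in serum and LIF, BMP signalling through Id genes is known for holding back neural differentiation, and Nodal signalling is active in the same cells. Apela (Elabela or Toddler) encodes a short secreted peptide hormone that binds the apelin receptor Aplnr and acts in early mesendoderm.

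A few stretches of coding sequence show how far the values of related members can be told apart by short reads. They are taken from GENCODE M21 transcripts (GRCm38), positions count from 1 at the first base of the start codon, and all are written 5′ to 3′ on the coding strand. The coding sequences of Lefty1 (chr1:180935110-180937975, plus strand) and Lefty2 (chr1:180893184-180897813, plus strand) are both 1107 bases long and agree at 1017 of them, or 91.9%. Bases 34 to 93 hold the most differences of any stretch of that length, and capitals mark the 18 bases that differ:
Lefty1, bases 34 to 93: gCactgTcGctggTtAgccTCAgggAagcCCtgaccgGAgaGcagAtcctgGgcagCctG
Lefty2, bases 34 to 93: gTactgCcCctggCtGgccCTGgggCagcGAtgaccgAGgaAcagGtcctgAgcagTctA
Over the whole of their exons, 25.7% of the 31-base stretches of Lefty1 also occur in Lefty2, and 17.2% of those of Lefty2 occur in Lefty1. How reads from shared stretches were counted is not known, so the split of reads between the Lefty genes is uncertain. Their sum may be affected as well.

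The Id genes are more distant from each other. Pairs of their coding sequences agree at 69.6% to 71.7% of aligned bases, with longest identical runs of 11 to 15 bases. The longest such run of Lefty1 and Lefty2 is 140 bases. The Lefty stretch printed above was picked for the most differences, 18, so it is the opposite extreme to the Id stretch below. Even the 60 bases that are most alike in all of the Id genes hold 17 positions, in capitals, where the genes are not all the same:
Id1, bases 247 to 306: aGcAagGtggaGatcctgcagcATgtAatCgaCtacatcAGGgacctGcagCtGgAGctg
Id2, bases 178 to 237: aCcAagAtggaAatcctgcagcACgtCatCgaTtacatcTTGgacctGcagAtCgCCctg
Id3, bases 193 to 252: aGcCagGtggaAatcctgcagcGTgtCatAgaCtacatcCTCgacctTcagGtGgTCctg
No 31-base stretch of Id1 or Id3 occurs in another annotated transcript. The values of Id1 and Id3 thus rest on sequence that no other annotated transcript shares at that length. For Id2, 1.60% of the 31-base stretches also occur in the predicted gene Gm6175.

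Apela stands out by the size of its product. Its coding sequence (chr8:65035666-65036965, minus strand, with introns) has 54 codons before the stop, and capitals mark the start and stop codons:
Apela, bases 1 to 165: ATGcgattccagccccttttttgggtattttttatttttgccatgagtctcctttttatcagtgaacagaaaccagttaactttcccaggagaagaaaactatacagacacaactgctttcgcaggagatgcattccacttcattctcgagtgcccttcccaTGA
The predicted gene Gm45886 overlaps Apela on the same strand and shares 27.4% of its 31-base stretches, and it was listed at 0 in all 8 libraries.

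The replicate number split the libraries before any treatment did. In the 4 replicate 1 libraries 30.9% to 37.7% of gene rows were above 0, against 62.4% to 89.0% in the 4 replicate 2 libraries, at depths of 6415129 to 20346941 and 3658367 to 20387062 reads recovered from the values. Actb stood at 9006 to 15913 FPKM in the replicate 1 libraries and at 55.3 to 76.6 in the replicate 2 libraries, and Gapdh at 4.07 to 10.1 and 37.4 to 74.9. The control libraries correlated across genes at a Spearman rho of only 0.421, the lowest of the groups. The sh libraries correlated at 0.546, the sd libraries at 0.605 and the dd libraries at 0.731. The labels do not say what the replicate number stands for, and both numbers hold 1 library of every group, so treatments were also compared within each number. The 10 mESC markers, Pou5f1, Sox2 and Nanog among them, were above 0 in every library, with summed levels of 1471 to 1912 FPKM in replicate 1 and 7042 to 10129 in replicate 2. That gap is nearly all Dppa5a, and the other 9 markers summed to 1101 to 1424 and 1176 to 1846 FPKM. Pou5f1 was at 83.1 FPKM in control replicate 1 against 17.8 to 24.2 in the treated libraries of that number, and at 251, 14.7, 130 and 53.1 in control, sh, sd and dd of replicate 2. Sox2 was at 177 to 371 FPKM in the libraries other than sh replicate 2, where it was at 19.7, and Nanog at 215 to 335 in all 8.

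Values are FPKM, fragments per kilobase of gene scaled to a total per library, and are given for replicate 1 and then replicate 2. Differences between groups were taken after log2(FPKM + 1), which makes those of low genes look smaller than they are. A gene counted as called at an adjusted p under 0.05 in limma with Benjamini-Hochberg adjustment over the 14561 genes.

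No member was called in any treatment. In limma without the replicate number, 0 genes of 14561 (0%) were called against control in any of sh, sd or dd, and 32, 50 and 83 had an unadjusted p under 0.05. The F test for any difference among the 4 groups also called 0 genes, with 22 at an unadjusted p under 0.05. On voom weights the counts called were 0, with 7, 11 and 24 genes at an unadjusted p under 0.05. With the replicate number as a term, limma again called 0 genes in each treatment, with 480 (3.3%), 945 (6.49%) and 1310 (9%) at an unadjusted p under 0.05. Of the members, Apela alone was among them, in sd. Standard errors of the members' differences without that term ran from 0.58 for Nodal to 2.04 for Id3, since each group mixed both numbers. A difference of the size most members showed was not detectable with 2 libraries of this spread.

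**Figure D1:**
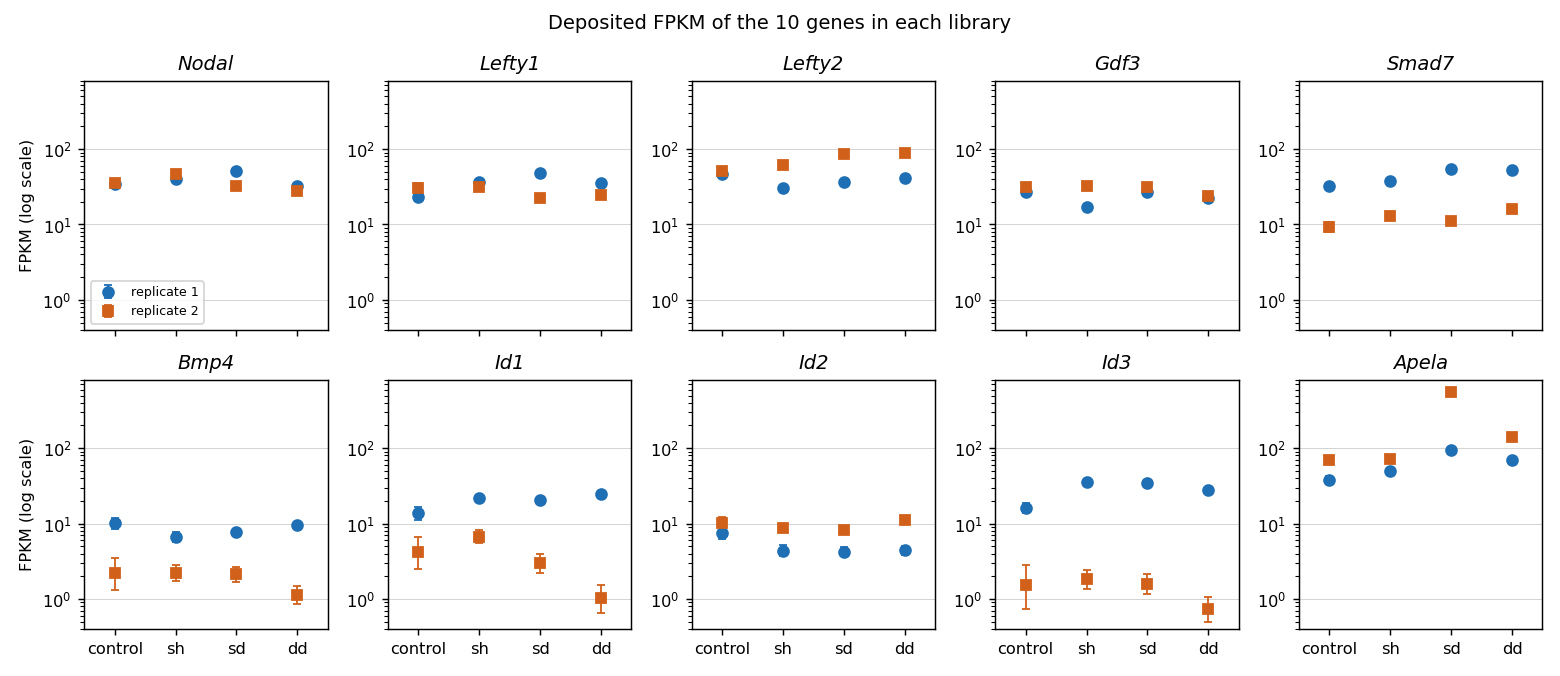
FPKM on a log axis for each of the 10 genes by group, with circles for replicate 1, squares for replicate 2 and bars for the exact 95% counting interval where it exceeds the symbol. Smad7, Bmp4, Id1 and Id3 sit lower in every replicate 2 library than in any replicate 1 library, and Apela reaches its highest value, 563 FPKM, in sd replicate 2.

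Nodal (ENSMUSG00000037171, chr10:61417972-61425338, plus strand), the ligand itself, was among the steadiest members. It stood at 34.5 and 35.1 FPKM in control, 39.6 and 46.6 in sh, 50.6 and 32.0 in sd, and 32.7 and 27.9 in dd. Both sh libraries were above both controls and both dd libraries below them, while the sd libraries lay on either side. Group means were 43.1 ± 4.99 in sh, 41.3 ± 13.2 in sd, 34.8 ± 0.41 in control and 30.3 ± 3.44 in dd (SD, n = 2 each). The log2 difference from control was 0.30 (SE 0.58) in sh, 0.20 in sd and -0.20 in dd, each with an adjusted p of 1 in limma. Of all genes tested, 8.4% had both sh libraries above both controls, which among the members held for Nodal and Lefty1. Both dd libraries were below both controls for 4.72% of genes, which among the members held for Nodal and Gdf3. No member was separated downwards in sh (2.13% of genes) or sd (2.69%), or upwards in dd (11.2%).

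Gdf3 (ENSMUSG00000030117, chr6:122605403-122610087, minus strand), a Nodal-related ligand that can also restrain BMP signalling, varied little. Its values were 26.9 and 31.7 FPKM in control, 17.0 and 32.1 in sh, 27.0 and 31.7 in sd, and 22.3 and 23.5 in dd. The dd libraries were both below both controls, by 0.26 in replicate 1 and 0.42 in replicate 2 on the log2 scale, and the sd libraries matched the control of their own number to within 0.01. The lowest value, in sh replicate 1, came with no such difference in sh replicate 2. The dd difference of -0.34 (SE 0.59) was not called.

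Lefty1 (ENSMUSG00000038793, chr1:180935022-180938400, plus strand), a feedback inhibitor of Nodal, stood at 23.3 and 30.5 FPKM in control, 36.7 and 31.3 in sh, 48.1 and 22.7 in sd, and 35.5 and 24.7 in dd. In replicate 1 all treated libraries were above control, by 0.63, 1.01 and 0.59 on the log2 scale in sh, sd and dd. In replicate 2 the same differences were 0.04, -0.41 and -0.29, so the direction in sd and dd turned with the replicate number. Both sh libraries were above both controls.

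Lefty2 (ENSMUSG00000066652, chr1:180893108-180899103, plus strand), the other Nodal inhibitor, read 46.9 and 51.6 FPKM in control, 30.5 and 61.6 in sh, 36.3 and 86.6 in sd, and 41.5 and 87.6 in dd. Here the replicate 1 libraries of the treated groups lay below control, by 0.60, 0.36 and 0.17 on the log2 scale, and the replicate 2 libraries above it, by 0.25, 0.73 and 0.75. Lefty1 and Lefty2 thus departed from control in opposite directions within a number in all libraries but sh replicate 2. The ratio of Lefty2 to Lefty1 was 2.01 and 1.69 in control, 0.83 and 1.96 in sh, 0.76 and 3.82 in sd, and 1.17 and 3.54 in dd. It fell below 1 only in the replicate 1 libraries of sh and sd. The summed Lefty level was steadier, at 67.3 to 84.3 FPKM in replicate 1 and 82.1 to 112 in replicate 2. The part that shared sequence plays in the split between them was not tested.

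Smad7 (ENSMUSG00000025880, on chromosome 18), the intracellular inhibitor of TGF-beta family receptors, stood at 32.3 and 9.31 FPKM in control, 37.2 and 13.0 in sh, 55.0 and 11.0 in sd, and 53.3 and 16.1 in dd. Every treated library was above the control of its own number. The log2 differences were 0.20 and 0.45 in sh, 0.75 and 0.22 in sd, and 0.70 and 0.73 in dd. Smad7 and Apela were the only members above control in all 3 treatments in both numbers, a pattern that 15% of all genes tested showed, and no member was below control throughout, against 3.66% of genes. The treatments share the control libraries, so these differences are not independent of each other. None was called, and with the replicate number as a term the dd difference of 0.72 (SE 0.34) had an adjusted p of 0.553 in limma.

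Bmp4 (ENSMUSG00000021835, chr14:46383520-46390669, minus strand), the BMP ligand of the list, was the least abundant member by mean level. It read 10.1 and 2.19 FPKM in control, 6.64 and 2.23 in sh, 7.70 and 2.14 in sd, and 9.52 and 1.13 in dd. The replicate 1 libraries of the treated groups all lay below control, by 0.54, 0.36 and 0.08 on the log2 scale, while in replicate 2 dd was lower by 0.58 and sh and sd stood at 0.02 and -0.02. The replicate 2 values rest on 18 control reads, with 70 in sh, 74 in sd and 52 in dd. The exact 95% interval of the control value, 1.30 to 3.46 FPKM, covers counting error only and overlaps that of dd, 0.85 to 1.49. Gm15217 and Gm15222 lie across Bmp4 on the other strand at up to 2.22 and 2.32 FPKM. With both strands searched, 3.55% of the 31-base stretches of Bmp4 occur in other annotated transcripts, and 2.65% occur in Gm15217. Reads from stretches shared with these genes could not be told apart from those of Bmp4 if counting ignored strand.

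Id1 (ENSMUSG00000042745, chr2:152736251-152737410, plus strand), a direct BMP target, stood at 13.8 and 4.24 FPKM in control, 21.8 and 6.73 in sh, 20.5 and 2.97 in sd, and 24.9 and 1.01 in dd. In replicate 1 every treated library was above control, by 0.62, 0.53 and 0.80 on the log2 scale. In replicate 2 sh was above by 0.56, sd below by 0.40 and dd below by 1.38. The dd value of replicate 2 rests on 24 reads, and its interval of 0.65 to 1.51 FPKM does not reach that of its control, 2.51 to 6.70. Neither interval covers the spread between libraries.

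Id3 (ENSMUSG00000007872, chr4:136143497-136145755, plus strand), a further direct BMP target, read 16.2 and 1.53 FPKM in control, 35.8 and 1.84 in sh, 34.0 and 1.60 in sd, and 27.8 and 0.74 in dd. The treated replicate 1 libraries were 2.21, 2.10 and 1.72 times the control of that number. The replicate 2 ratios were 1.20, 1.05 and 0.48, on 46, 44 and 27 reads against 10 in control. Id1 and Id3 therefore shared the pattern of higher values in all treated libraries of replicate 1, as did Lefty1, Smad7 and Apela. These comparisons all rest on control replicate 1. The median of all genes tested was also above that control, by 0.10 in sh, 0.31 in sd and 0.28 in dd on the log2 scale. The share of all genes with this pattern was not counted.

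Id2 (ENSMUSG00000020644, chr12:25093799-25097140, minus strand), the remaining Id gene of the members, went the other way from Id1 and Id3 in replicate 1. It stood at 7.48 and 10.1 FPKM in control, 4.39 and 8.69 in sh, 4.25 and 8.22 in sd, and 4.41 and 11.0 in dd. The treated replicate 1 libraries were lower than control by 0.65, 0.69 and 0.65 on the log2 scale, and only dd replicate 2 was above its control, by 0.11. As a share of the summed FPKM of Id1, Id2 and Id3, Id2 made up 19.9% in control replicate 1 and 7.08% to 7.73% in the treated replicate 1 libraries. In replicate 2 its share was 50.4% to 86.2%. Across the 8 libraries, with values centred on the mean of their replicate number, Id2 and Id3 had a Pearson r of -0.92 and Id1 and Id3 one of 0.73, as a description of libraries that share their controls and their number.

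**Figure D2:**
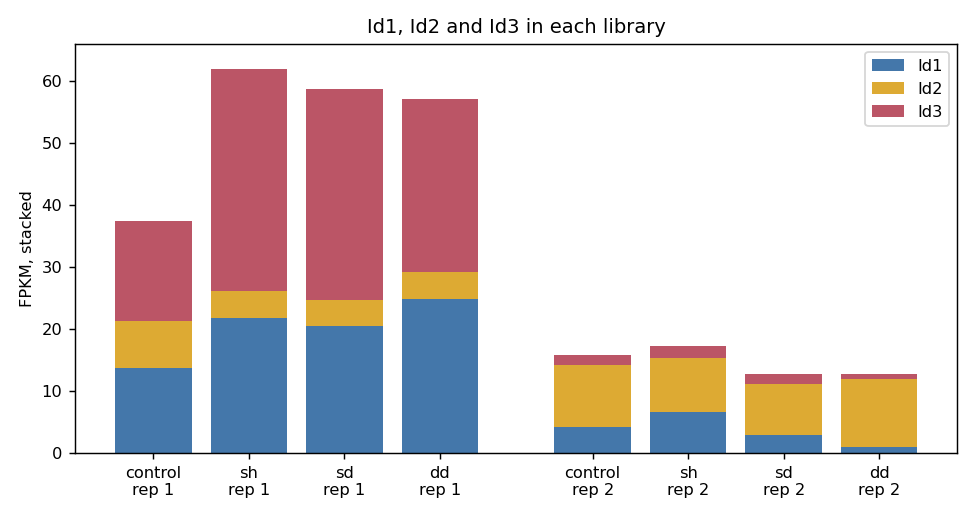
Stacked FPKM of Id1, Id2 and Id3 in each library, with replicate 1 libraries to the left and replicate 2 libraries to the right. The summed level is 37.5 to 62.0 FPKM in replicate 1, mostly Id1 and Id3, and 12.7 to 17.3 FPKM in replicate 2, mostly Id2.

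Apela (ENSMUSG00000079042, chr8:65028417-65037336, minus strand), the peptide hormone gene, had the highest single value among the members. It stood at 37.6 and 70.2 FPKM in control, 50.5 and 71.3 in sh, 94.0 and 563 in sd, and 70.0 and 142 in dd, on 242 to 8686 reads. Both sd libraries were above both controls, as in 11.1% of all genes tested, and the dd libraries overlapped the controls by a narrow margin, with dd replicate 1 just under control replicate 2. Within a number, sd was 2.50 times control in replicate 1 and 8.02 times in replicate 2, and dd was 1.86 and 2.02 times control. The sh ratios were 1.34 and 1.01. Group means were ordered sd at 329 ± 332, dd at 106 ± 50.6, sh at 60.9 ± 14.7 and control at 53.9 ± 23.1 FPKM (SD, n = 2 each), and sh and control differed by less than their spread.

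The sd difference of Apela was 2.14 (SE 1.0) on the log2 scale, with an unadjusted p of 0.0722 and an adjusted p of 1 in limma. With the replicate number as a term its SE was 0.47, its unadjusted p 0.00135 and its adjusted p 0.723, and it was 22nd of 14561 genes by p. It did not pass the threshold in either fit. Without sd replicate 2 the difference was 0.86, and without sd replicate 1 it was 3.43. Within replicate numbers the difference was 1.30 in replicate 1 and 2.99 in replicate 2, and whether these differ was not tested, since each rests on 1 library of each group. The dd difference was 0.94 (SE 1.0) and the sh difference 0.22 (SE 1.0), both with an adjusted p of 1 in limma. Over all genes the median difference was 0.17 in sd, 0.15 in sh and 0.06 in dd, and with quantile normalization or median ratio scaling the sd difference of Apela was 1.97 or 1.87, still not called. Aplnr, its receptor, and Apln, the other ligand of that receptor, stayed under 1 FPKM in every library and were not tested.

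**Figure D3:**
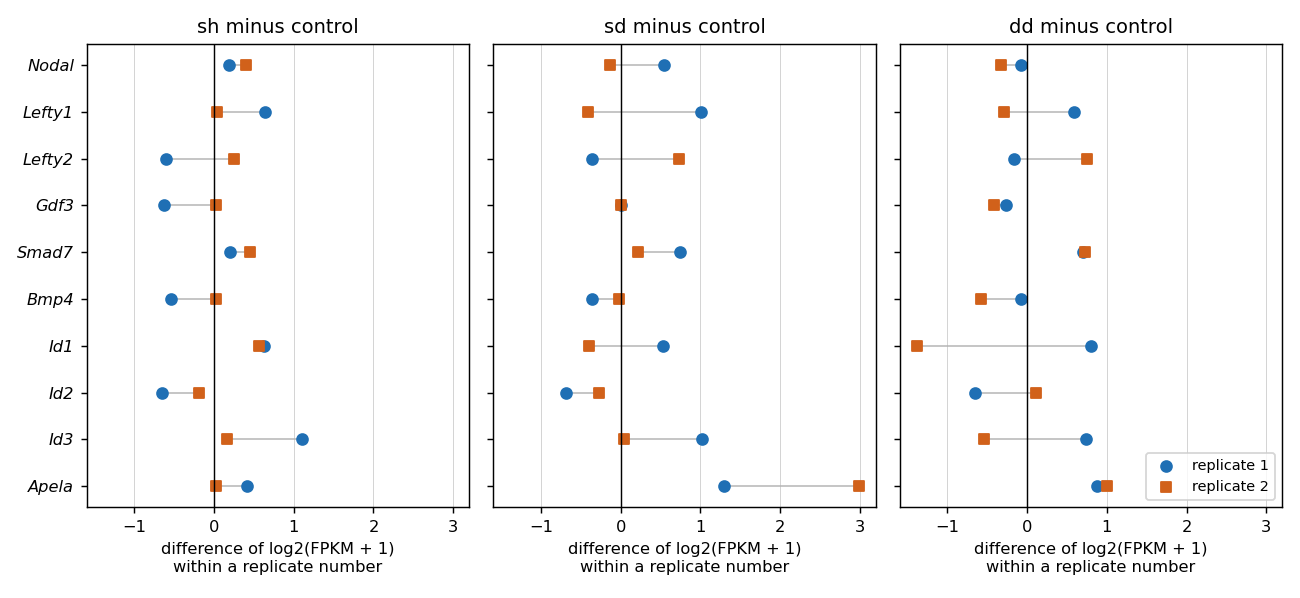
Difference of log2(FPKM + 1) between each treated library and the control of the same replicate number, with circles for replicate 1, squares for replicate 2 and a line joining them. Apela in sd is at 1.30 and 2.99 and Smad7 is right of 0 in every panel, whereas Lefty1 and Lefty2 cross 0 between the numbers in sd and dd.

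Counted by direction, 6 of 10 members were above control in both numbers in sh and 1 was below (35.2% and 10.6% of all genes tested). In sd 4 were above and 2 below (37.5% and 12.7%), and in dd 2 were above and 3 below (31% and 15.1%). The median difference of the members was 0.26 in sh, 0.20 in sd and -0.05 in dd, against 0.15, 0.17 and 0.06 over all genes. These counts and medians are given as a description, and the treatments share the control libraries.

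For Smad7, Bmp4, Lefty2, Id1, Id2 and Id3 the difference between the replicate numbers was larger than that of any treatment from control. Of the 10 members, 7 were called between the numbers in limma with the groups as a term, where 61.3% of all genes tested were called. Bmp4, Id1, Id3 and Smad7 were lower in replicate 2, with Id3 at -3.57 (SE 0.29, adjusted p = 1.50e-05), Id1 at -2.30 (SE 0.38, adjusted p = 8.05e-04), Smad7 at -1.76 (SE 0.24, adjusted p = 3.13e-04) and Bmp4 at -1.70 (SE 0.28, adjusted p = 7.94e-04). Only 14.6% of all genes tested were called lower in replicate 2, and 46.6% were called higher. Each of these 4 genes had all replicate 2 libraries below all replicate 1 libraries, as did 14.2% of genes tested. They were the members at or below -1.5, as were 6.05% of genes tested, and a difference lower than that of Id3 was found for 0.989%. The mean of Id3 was 19.9 times as high in replicate 1 as in replicate 2, that of Id1 5.42 times, that of Bmp4 4.42 times and that of Smad7 3.60 times.

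Lefty2, Id2 and Apela were called higher in replicate 2, by 0.85 (SE 0.26, adjusted p = 0.0169), 0.80 (SE 0.25, adjusted p = 0.0220) and 1.24 (SE 0.33, adjusted p = 0.0106) in limma. The median of all genes was itself 0.73 higher in replicate 2, so Lefty2 and Id2 lay close to that shift. Lefty2 and Id2 did not overlap between the numbers, as 41.9% of genes tested in that direction, whereas Apela did. Nodal at -0.15, Lefty1 at -0.35 and Gdf3 at 0.35 were not called. The scaling decided several of these. With quantile normalization, which put the median of all genes at 0.02, and with median ratio scaling, which put it at 0.30, none of Lefty2, Id2 and Apela was called, and Nodal (-0.75 and -0.72) and Lefty1 (-0.93 and -0.92) were called lower. Of all called genes, 76.1% were higher in replicate 2 as deposited, 48.0% with quantile normalization and 59.8% with median ratio scaling. Id3, Id1, Smad7 and Bmp4 were called lower under both scalings. Apela was also not called without either sd library (0.79), and neither Lefty2 nor Id2 without either sd or either sh library. Lefty2 was also not called without dd replicate 1, nor Id2 without either dd library.

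**Figure D4:**
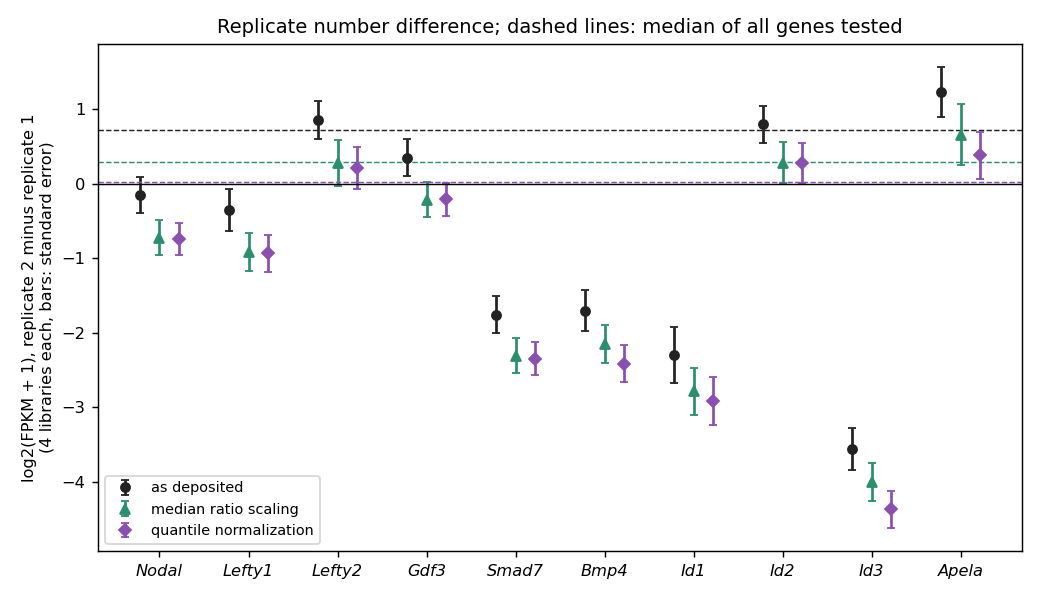
Replicate 2 minus replicate 1 difference of log2(FPKM + 1) for each gene, 4 libraries each, with standard errors, as deposited (black), with median ratio scaling (green) and with quantile normalization (purple), and the median of all genes tested as a dashed line of the same colour. Smad7, Bmp4, Id1 and Id3 are below -1.5 under all scalings, and Lefty2, Id2 and Apela approach 0 after scaling.

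Markers of other cell types also moved with the replicate number. The 10 primitive endoderm markers, such as Gata6 and Sox17, summed to 44.4 to 60.7 FPKM in replicate 1 and 15.1 to 25.9 in replicate 2. None was at 0. As deposited 7 of 10 were called lower in replicate 2, against 14.6% of all genes tested. With quantile normalization 9 were called lower (29.8% of genes tested), and with median ratio scaling 8 (23.9%). The summed levels in replicate 1 and replicate 2 were 29.1 to 43.8 and 49.5 to 112 FPKM for fibroblast feeder markers, 1.97 to 5.31 and 5.33 to 22.6 for mesoderm and streak markers, 9.20 to 12.4 and 23.3 to 36.1 for trophoblast markers, and 4.40 to 7.47 and 10.7 to 15.6 for neuroectoderm markers. These other sums were higher in replicate 2, as was the median of all genes tested as deposited, by 0.73 on the log2 scale. The feeder sum is nearly all Fn1, which codes for fibronectin, and the other 9 feeder markers summed to 0.49 to 0.82 and 2.43 to 9.06 FPKM. In replicate 1, 4 to 8 of 10 feeder markers and 3 to 6 of 9 streak markers were at 0. Their part in the differences of the members was not tested, and in bulk RNA fewer cells of a type and less RNA per cell cannot be told apart.

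Other genes of both pathways were taken from lists of components. Of 48 tested, 0 were called in any treatment in limma, with and without the replicate number. Between the replicate numbers 13 were called higher and 10 lower in replicate 2, and their median difference was -0.05, against 0.73 for all genes tested. With quantile normalization 4 were called higher and 23 lower, and with median ratio scaling 8 and 20. Of all genes tested, 46.6% were called higher and 14.6% lower as deposited. Those shares were 27.6% and 29.8% with quantile normalization, and 35.5% and 23.9% with median ratio scaling. The same shares are the background for the single lists below. Of the called genes from these lists that are named next, Tdgf1 and Hes1 were not called under either scaling. The others from these lists kept their direction and their call. On the ligand side of Nodal, 5 of 13 were tested and 1 was called in each direction as deposited, 0 higher and 3 lower with quantile normalization, and 1 and 3 with median ratio scaling. Pcsk6, a convertase that cleaves the Nodal precursor, was at 9.16 to 14.0 FPKM in replicate 1 and 7.32 to 11.3 in replicate 2, and was called lower only after scaling (-0.66 and -0.69). Fst, which traps activins, was called lower (-1.30, adjusted p = 0.0156 in limma), and Inhbb, an activin subunit, was at 2.09 to 5.86 and 0.96 to 3.31 FPKM and was likewise called only after scaling (-1.53 and -1.23).

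Among Nodal receptors, coreceptors and Smads, 2 of 14 tested were called higher and 4 lower as deposited, 0 and 9 with quantile normalization, and 1 and 7 with median ratio scaling. Tdgf1 (Cripto), the coreceptor of Nodal, was at 167 to 255 FPKM in replicate 1 and 297 to 626 in replicate 2 and was called higher (1.09, adjusted p = 0.00226 in limma), but stood at -0.17 with quantile normalization. Skil (SnoN), a Smad corepressor, was at 239 to 460 FPKM in replicate 1 and 2.43 to 4.08 in replicate 2, the lowest difference of the 48 genes (-6.38, adjusted p = 1.71e-06 in limma). Acvr2b, an activin receptor that Nodal uses, was at 17.8 to 44.9 and 1.76 to 5.57 FPKM. Tgif1, another Smad corepressor, was at 32.6 to 33.8 and 19.5 to 30.3 FPKM and was called only after scaling, as lower (-0.85 and -0.86).

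Nodal targets split, with 2 of 6 tested called higher and 2 lower as deposited, and 2 and 3 under both scalings. Pmepa1, a negative regulator of Smad signalling, was higher in replicate 2 by 1.58 (adjusted p = 0.00237 in limma). Gsc, a mesendoderm homeobox gene, was at 0 to 0.37 FPKM in replicate 1 and 2.67 to 8.41 in replicate 2.

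On the BMP side, 1 of 3 tested ligands and extracellular regulators was called higher and 0 lower as deposited, and 1 and 1 under both scalings. The higher gene was Bmp7 (2.14, adjusted p = 6.06e-04 in limma), at 0.29 to 2.52 FPKM in replicate 1 and 7.37 to 10.4 in replicate 2, the opposite direction to Bmp4. Of 11 tested BMP receptors and Smads, 4 were called higher and 3 lower as deposited, 0 and 4 with quantile normalization, and 2 and 4 with median ratio scaling. Bmpr1a, the main BMP type I receptor of mESCs, was among the lower (-1.11, adjusted p = 0.00809 in limma), at 11.9 to 20.0 and 4.78 to 8.32 FPKM. Of 9 tested BMP targets and Id partners, 3 were called higher and 0 lower as deposited, 1 and 3 with quantile normalization, and 1 and 2 with median ratio scaling. Among the Id genes of the members, Id1 and Id3 were lower and Id2 higher as deposited, and Id2 was not called under either scaling. Id4, an Id gene outside the members, stood at 0.49 and was not called (adjusted p = 0.224 in limma), nor was it under either scaling. Hes1, a helix-loop-helix repressor, was higher (0.90, adjusted p = 0.00928 in limma), and so was Tcf3, which encodes E proteins that Id proteins bind (2.37, adjusted p = 7.94e-05 in limma). Tcf4 and Tcf12, which encode other E proteins, stood at -0.62 and -0.34 and were not called as deposited. With quantile normalization both were called lower (-1.40 and -1.18), and with median ratio scaling Tcf4 alone was (-1.0). Klf4, a pluripotency factor, was at 98.1 to 109 FPKM in replicate 1 and 52.3 to 87.4 in replicate 2 and was called only after scaling, as lower (-1.39 and -1.14).

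Genes whose centred values followed a member most closely over the 8 libraries were also listed, as a description without a test. Genes with predicted, clone or pseudogene names were left out. The libraries share replicate numbers and controls, so the 8 points are not independent. For Nodal they were Daam1 (Pearson r 0.999), Nup188 (0.986) and Dcaf5 (0.969), and for Bmp4 they were Nkain1 (0.983), Rmc1 (0.981) and Gphn (0.967). For Id1 they were Mybl2 (0.991), Coro1c (0.986) and Fdps (0.984). For Apela the closest named genes were Hesx1 (0.907), Cap2 (0.901) and Gpx1 (0.893), a looser likeness than for the others. A gene that was left out by its name followed Apela more closely than these.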

How the data were processed

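Values were FPKM per gene and library as deposited, per the file headers. Upstream, CASAVA 1.4 and HISAT2 were used with the mm10 build, per the submitters' processing notes. The counting program, annotation, FPKM formula and strand setting were not given in the sources used here. Of 58420 gene rows 6082 held no value. Symbols, coordinates and exon lengths came from GENCODE M21 (GRCm38), which matched 52081 of 52338 rows. FPKM times exon length was a whole multiple of 1 read, within 0.02, for 98.3% to 98.9% of the values below 100 reads. The reads and depths so recovered were used for intervals and voom.

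Tests were run in R 4.3.3 with limma 3.58.1, on log2(FPKM + 1) and with a mean-variance trend, 2-sided, over all 4 groups without the replicate number (4 residual degrees of freedom). Replicate numbers were compared with the group as a term (3). Pathway lists are described by counts and medians. The text names the 10 genes, up to 3 genes of highest mean FPKM of each pathway list and called genes, and the 3 genes most like Nodal, Bmp4, Id1 and Apela. For that likeness, genes with predicted, clone or pseudogene names were left out. Actb, Gapdh, Id4, Tcf4, Tcf12, the single markers and the overlapping genes lie outside that rule and were picked once their values were known. The scripts were tested on simulated data. Members and lists were chosen with earlier results of these data known. Alternatives are under the closing section, and those with voom and the replicate number together, or with the replicate number and 1 library left out, were added after seeing the data. Figures used Python 3.11.15 and matplotlib 3.10.9. Some items that the rule names are not reported here.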

Additional observations from a re-analysis of the deposited data

How the results depend on the processing

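No member was called in sh, sd or dd under any alternative run. Leaving out 1 library gave 0 genes called in each treatment and in the F test, and 6992 to 8789 between the replicate numbers. Same-numbered libraries deviated together (correlations of 0.75 to 0.893 between groups over 14561 genes), but each comparison has only 2 numbers and the labels tie them to nothing. With the replicate number as a block, 0 genes were called in each treatment and in the F test. Blocked voom called 0, 4 and 11 genes in sh, sd and dd and 13 in the F test. The block without control replicate 1 called 102, 149 and 167 and 38 in the F test, and without control replicate 2 it called 0, 1 and 1. The cause was not tested.

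The treatment differences that changed sign were not called under any setting. In sd they were Gdf3 (-0.15) and Id1 (-0.0796) with quantile normalization, Nodal (-0.0614), Lefty2 (-0.0819), Gdf3 (-0.26) and Id1 (-0.18) with median ratio scaling, Id1 (-0.00262) with voom and Gdf3 (-0.00270) with blocked voom. In dd they were Id3 with a pseudocount of 0.1 (-0.0896), median ratio scaling (-0.0576) and voom (-0.55), Lefty1 with median ratio scaling (-0.0139) and Id1 with blocked voom (0.24). In sh, Apela was at -0.0153 with the block without control replicate 2 and at -0.28 with the block without sh replicate 1. For the block with 1 library left out, differences were recorded for Apela alone, so sign changes of the other members there are not known. Between replicate numbers, Gdf3 was at -0.20 with quantile normalization and -0.21 with median ratio scaling, 5368 genes were called at a mean of at least 5 FPKM, where fewer genes are tested, Id2 had an adjusted p of 0.0619 in limma without a filter and Apela 0.0801 without the group term.

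With 1 library left out and no block, a group holds 1 replicate number and its control both, or the reverse, and the sign of most members' treatment differences then turned. For sh the ranges were Lefty2 -0.67 to 0.32, Gdf3 -0.75 to 0.13, Smad7 -0.52 to 1.17, Bmp4 -1.16 to 0.64, Id1 -0.19 to 1.37, Id3 -1.22 to 2.48 and Apela -0.22 to 0.66. In sd they were Nodal -0.12 to 0.53, Lefty1 -0.23 to 0.83, Lefty2 -0.43 to 0.80, Gdf3 -0.11 to 0.12, Smad7 -0.62 to 1.60, Bmp4 -1.09 to 0.71, Id1 -1.15 to 1.28 and Id3 -1.34 to 2.41. In dd they were Lefty1 -0.10 to 0.40, Lefty2 -0.24 to 0.82, Smad7 -0.13 to 1.56, Bmp4 -1.48 to 0.82, Id1 -2.13 to 1.55, Id2 -0.84 to 0.31 and Id3 -1.92 to 2.13. Between replicate numbers that range was -0.28 to 0.00984 for Nodal, the highest without either sd library. Groups of 2 libraries limit every treatment result, and the control libraries are the shallowest.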
